A study of Drosophila melanogaster with 35 samples.

Results

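Of 12187 H3K27ac peaks on the 6 main chromosome arms of control BG3C2 cells, 3657 (30.0%) overlapped no control H3K4me3 peak and no region bound by DMAD, Pc or Wds. These peaks, called enhancer-like here, were chosen by that absence alone, with an overlap of at least 1 bp counting as contact. The other peaks served as 2 comparison classes, 5984 with control H3K4me3 and 2546 without H3K4me3 but with a DMAD, Pc or Wds region. The study asked about DMAD, a fly protein of the Tet family whose gene CG43444 was named CG2083 earlier, and about methylated adenine (6mA) in DNA. BG3C2 is an established cell line derived from the larval central nervous system of Drosophila melanogaster. Control cells are labelled wild type, and knockdown cells had received double-stranded RNA against CG2083 for 144 hours; the labels do not describe what control cells received. Brains were labelled wild type or DMAD-knockout, with no age, sex or allele given. RNA libraries numbered 3 per group in BG3C2 and 2 per group in brain, 6mA immunoprecipitation had 3 libraries per group in BG3C2, 2 of them under a shared replicate number, and 1 per genotype in brain, and H3K4me3 and Wds had 1 library per condition. DMAD binding came from 3 libraries and Pc from 2 per condition. No sample record for the H3K27ac and RNA polymerase II (Pol II) lists was among the labels used here, and the control Pol II list names the line BG3C3.

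Acetylation of histone H3 at lysine 27 marks active promoters and active enhancers, the distal DNA elements that bind transcription factors and raise transcription of a gene on the same chromosome. Trimethylation of lysine 4 accompanies promoters that are in use, so an acetylated region without it is the usual operational picture of an active enhancer. Pc is the chromodomain subunit of Polycomb repressive complex 1, and Wds, the fly WDR5, belongs to complexes that methylate H3 lysine 4. In flies, enhancers often lie within introns of long developmental genes, and paused or short-lived Pol II can be found on them. No assay of enhancer function was among the data, so the name stands for a combination of peak lists, and it suits least the 272 peaks that run over the end of a gene locus.

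The identity of the cells was checked against marker genes in the authors' deposited table. The FPKM (fragments per kilobase, scaled to sequencing depth) of elav, an RNA-binding protein gene of neurons, was 12.2 in control BG3C2 cells in that authors' deposited table. The other neuronal markers measured, fne, brp, Syt1 and para, were at or below 0.0998 FPKM, against 72.3 to 514 in control brain, in the authors' deposited tables. Markers of neuroblasts, the neural stem cells, were at 1.55 FPKM or below, while the glial genes moody and nrv2 were at 63.0 and 101 in the authors' deposited table. The glial factor genes repo and gcm were at 1.81 and 0.0440 FPKM in the authors' deposited table. Of haemocyte markers, the GATA factor gene srp stood at 134.5 FPKM, but Pxn, Hml and NimC1 at 4.77, 3.78 and 0.144, in the authors' deposited table. Most defining genes of mature neurons were thus near 0, and the line is named here by its label only. CG43444 had 65.9 FPKM in control and 34.9 in knockdown cells, and 39.8 and 40.4 in the brain groups, without a call in either of the authors' deposited tables, so RNA level did not check the knockout label. Each gene has 1 deposited FPKM for a group; replicate spread and depth are therefore unknown.

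Enhancer-like peaks were narrower and weaker than the other H3K27ac peaks. Their median width was 873 bp (range 294 to 6924), against 1373.5 bp for peaks with H3K4me3 and 1153 bp for the remaining class. Any overlap with a region of the lists used by the rule removes a peak, and a wide peak has more room for one. The rule itself thus favours narrow peaks, and how much of the difference in width or score comes from this was not tested. The score per peak is the authors' own, minus 10 times log10 of the p-value in the MACS layout. It is compared here only within a list, the control H3K27ac list unless the knockdown list is named. Its median was 115 among enhancer-like peaks (50.06 to 3165.95), 883 with H3K4me3 and 180.0 in the remaining class. Scores of enhancer-like peaks nevertheless spanned nearly the whole range of the list, and 25% of them were above 216.93. At the edge of the rule, 179 enhancer-like peaks lay within 100 bp of a region that would have removed them, and 89 other peaks were removed by an overlap of at most 100 bp.

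**Figure D1:**
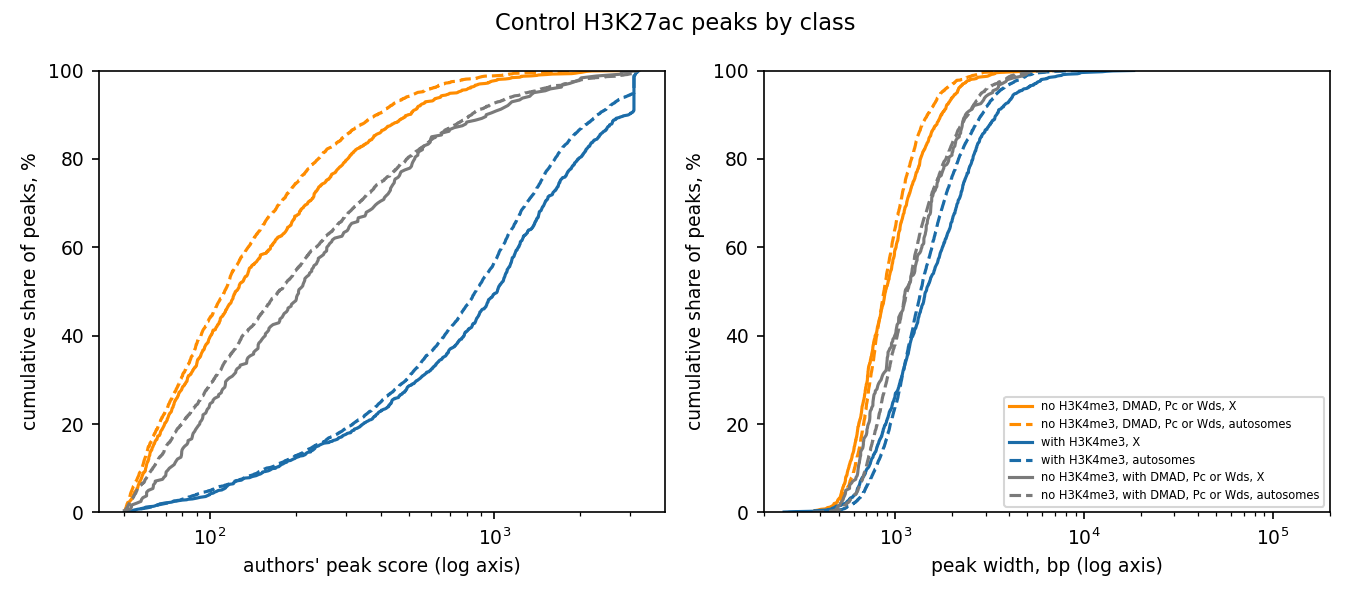
Cumulative share of control H3K27ac peaks (vertical axis, %) by the authors' score (left) and width in bp (right), both on log axes, for 3 classes on X (solid) and autosomes (dashed). Enhancer-like peaks lie to the left in both panels, with a median score of 115 and a median width of 873 bp, and H3K4me3-marked peaks lie farthest to the right.

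On the X chromosome 989 of 2310 H3K27ac peaks were enhancer-like (42.8%, 95% Wilson interval 40.8 to 44.8), against 2668 of 9877 on the autosomes (27.01%, 26.1 to 27.9). All intervals on shares of peaks are Wilson intervals and cover counting error only. The lists used by the rule are uneven between chromosomes: X held 8.01% of DMAD regions, 7.12% of Pc regions and 12.8% of Wds regions, but 17.9% of control H3K4me3 peaks. X held 19.0% of all H3K27ac peaks, 18.6% of the arm length and 27.04% of enhancer-like peaks. The density of enhancer-like peaks was 44.1 per Mb on X and 27.3 per Mb on the autosomes, with 4.53 per Mb, or 6 peaks, on the small arm 4. The 4 large autosomal arms lay close together, between 24.9 per Mb on 2L and 30.6 per Mb on 2R. The X chromosome also held 8 of the 10 enhancer-like peaks with the highest scores and 44 of the highest 100.

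Most enhancer-like peaks lay inside genes and away from their ends. The gene loci of the RNA tables, which merge overlapping genes and carry no strand or exons, contained 2902 of them (79.4%, 78.0 to 80.6), with a median distance of 4394 bp to the nearest locus end. Another 483 (13.2%) lay between loci, at a median of 3058 bp from the nearest one. Only 272 (7.44%, 6.63 to 8.33) ran over a locus end, where 62.3% of H3K4me3-marked peaks did (61.1 to 63.6). The class with DMAD, Pc or Wds but no H3K4me3 was placed much as the enhancer-like peaks were, with 8.88% over an end (7.83 to 10.0). The median distance from an enhancer-like peak to the nearest H3K4me3-marked H3K27ac peak was 5025 bp, and 34.6% were more than 10 kb away.

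Enhancer-like peaks often lay near each other. Another one lay within 5 kb of 2464 of them (67.4%). Joining neighbours at most 5 kb apart gave 2014 groups, of which 1193 were single peaks and 821 were runs of 2 or more. Of the runs, 103 held at least 5 peaks, with 642 enhancer-like peaks in all (17.6%). The same count was not made for the other classes. The longest run had 15 peaks over 36093 bp on X (dm3, chrX:20342914-20379006) in the locus of RhoGAP19D, a GTPase-activating protein gene. Its scores ranged from 59.28 to 828.2, and 1 of the 15 peaks carried control Pol II. A run of 12 lay within KrT95D (dm3, chr3R:19828898-19855140), also with 1 Pol II peak. Runs of 10 lay in the shared locus of cbt and ush on 2L, in Zasp52 on 2R, in a gene-rich bundle around SF2 and Sulf1 on 3R, and in a stretch of 3L with no gene locus (dm3, chr3L:8672975-8690210). These runs were chosen after their sizes were seen.

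The 10 enhancer-like peaks with the highest scores all lay inside gene loci. The highest of all (score 3165.95) was a 2487 bp peak within CG8034 (dm3, chrX:19176553-19179039), which ended 62 bp from an excluding region. Next came a peak of score 2205.55 within Clic (dm3, chrX:13708203-13710404), the chloride intracellular channel gene. Another, of 2110.76, lay in a bundle of CG5004, mei-218 and mei-217 on X. The peak in wgn, a tumour necrosis factor receptor gene of the JNK pathway, scored 2070.87 (dm3, chrX:18520284-18523395). That in sdt, a cell polarity scaffold gene, scored 2030.28 and was the most isolated of the 10, at 16951 bp from any excluding region (dm3, chrX:8104784-8106368). Others lay in ras, which encodes inosine monophosphate dehydrogenase (1974.03), in Moe, the moesin gene that ties actin to the membrane (1931.69), and in CG30089 on 2R (1893.52). The last were in zip, non-muscle myosin II heavy chain (1890.31, dm3, chr2R:20893082-20895915), and bif, an actin-associated protein gene (1871.97). All 10 were under a knockdown H3K27ac peak. Pol II covered 7 of these peaks in control cells and 1, in CG30089, after knockdown.

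The 10 loci with the most enhancer-like peaks were 33371 to 395444 bp long. RhoGAP19D, pum, which encodes the translational repressor Pumilio, and a bundle of 24 genes around rst and kirre, adhesion genes of the immunoglobulin superfamily, held 15 each. The sli locus, which encodes the midline guidance ligand Slit, held 14 in 52065 bp, beside 9 peaks bound by DMAD, Pc or Wds and 1 with H3K4me3. Ten-m, a teneurin, cv-c, a GTPase-activating protein gene, and klar, a nuclear positioning gene, held 13 each. CG43658, KrT95D and the cbt and ush pair held 12 each. Per 10 kb the density was 3.68 in RhoGAP19D and 3.60 in KrT95D but 0.379 in the rst bundle. Among loci of a single gene, listed after their counts were seen, Ac13E (an adenylyl cyclase gene) and pnt (an ETS factor of the EGF receptor pathway) held 11 each. Zasp52, cdi, psq, sdt and sgg held 10 each.

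Longer loci held enhancer-like peaks more often, and gene lists differ in length. The share of loci holding at least 1 was 3.23% up to 2000 bp, 9.66% from there to 5000 bp, 28.4% to 20000 bp, 43.6% to 50000 bp and 56.5% beyond. In all, 1568 of 10808 loci held 1 or more, and these had a median length of 9905 bp against 2201 bp for the others. The number of enhancer-like peaks per 10 kb was highest from 5000 to 20000 bp, at 0.494, and 0.290 in loci over 50000 bp.

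After DMAD knockdown, 3109 enhancer-like peaks (85.0%, 83.8 to 86.1) were still under an H3K27ac peak. The share was 98.8% (98.5 to 99.0) for H3K4me3-marked peaks and 92.5% (91.4 to 93.4) for the remaining class. Coverage was seldom marginal, since 3094 of the 3109 had at least 50% of their length covered. The difference between classes moved with peak score. In 4 score ranges holding near-equal numbers of enhancer-like peaks, the share went from 58.1% (54.9 to 61.3) through 84.5% and 97.6% to 99.9%. H3K4me3-marked peaks in these ranges reached 70.2% (62.2 to 77.1), 89.7%, 98.7% and 100%, and the remaining class 67.9%, 88.8%, 98.4% and 100%. The intervals of enhancer-like and H3K4me3-marked peaks did not overlap in the lowest range, and in the highest range 1 enhancer-like peak was off the list. With 1 list per condition, loss of acetylation and failure to pass the peak caller's threshold cannot be told apart.

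**Figure D2:**
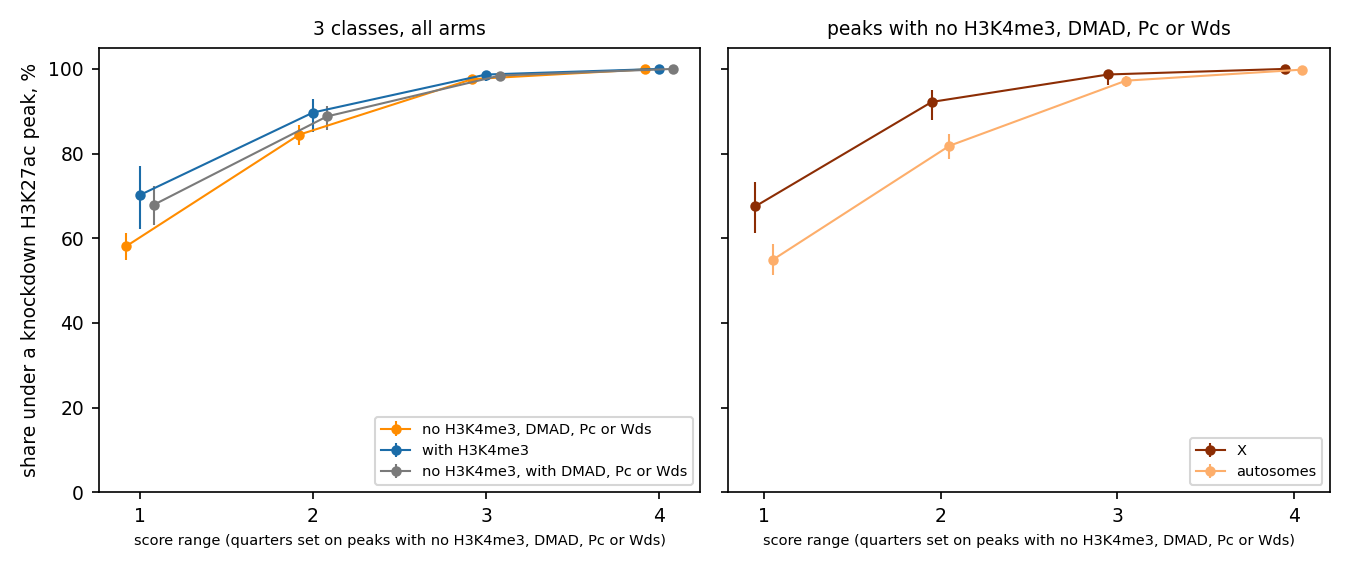
Share of control H3K27ac peaks under a knockdown H3K27ac peak (vertical axis, %) in 4 score ranges set on the enhancer-like peaks (1 lowest, 4 highest), with 95% Wilson intervals. In the left panel the 3 classes converge from 58.1 to 70.2% in range 1 to at least 99.9% in range 4; in the right panel enhancer-like peaks on X lie above those on autosomes in range 1 (67.5 and 55.0%).

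Enhancer-like peaks on X were under a knockdown H3K27ac peak more often than autosomal ones, 90.4% (88.4 to 92.1) against 83.0% (81.5 to 84.4). In the lowest score range the shares were 67.5% (61.2 to 73.3) and 55.0% (51.2 to 58.6), and in the second 92.2% (88.0 to 95.01) and 81.8% (78.8 to 84.6). Above these ranges both were at least 97.2%. By place, 75.8% of enhancer-like peaks between loci, 86.6% of those inside loci and 84.9% of those over a locus end were under a knockdown peak.

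The 548 enhancer-like peaks off the knockdown list were weak. Their median score was 62.59 and their highest 240.77, and 23 of them exceeded the median of all enhancer-like peaks. The strongest, at an end of the CR43478 locus (dm3, chr3R:806634-808858), had neither Pol II nor gained 6mA. Those following were in Slc45-1 (173.36), a solute carrier gene, in the locus of CG42313 (170.62), in drpr (163.94), the engulfment receptor gene Draper, and in ZnT35C (163.17), a zinc transporter gene. The sixth (160.10) lay 17946 bp from CG31928. The authors' deposited table gave the zinc transporter gene 0.222 FPKM in control cells, and CG42313 0.00748. By contrast drpr, whose locus also holds 3 H3K4me3-marked peaks, had 361 FPKM in control and 374 in knockdown cells (log2 fold change 0.05, q = 1.00) in the authors' deposited table.

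Pol II was listed over a smaller share of enhancer-like peaks than of the other classes. Control Pol II peaks overlapped 426 enhancer-like peaks (11.6%, 10.6 to 12.7). The share was 65.6% (64.4 to 66.8) for H3K4me3-marked peaks and 45.7% (43.8 to 47.6) for the remaining class. Among peaks of 500 to 1500 bp the values were 10.4%, 52.9% and 36.9%, so the order was the same within this range of widths; widths were not matched further. The share depended on place: 20.2% of enhancer-like peaks over a locus end, 12.1% inside loci and 4.14% between loci carried Pol II. It was 15.1% (12.9 to 17.6) in the highest score range and between 9.63 and 11.8% in the other 3. Measured in bases, control Pol II covered 12.5% of enhancer-like peaks, against 11.1% of the arms as a whole. On X these values were 6.32% and 5.55%, and on the autosomes 15.0% and 12.4%. Enhancer-like peaks were thus close to the arm-wide level. The H3K4me3-marked peaks and the remaining class, at 64.5% and 49.2% of bases, were above it.

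In the knockdown Pol II list, 301 enhancer-like peaks (8.23%, 7.38 to 9.17) were covered, of which 134 were also in the control list. The control list alone covered 292 and the knockdown list alone 167. Of the enhancer-like peaks with control Pol II, 31.5% were thus covered after knockdown, against 40.6% of the H3K4me3-marked and 62.0% of the remaining class. On X the number went from 66 to 11 (6.67 to 1.11% of enhancer-like peaks) and on the autosomes from 360 to 290 (13.5 to 10.9%). The Pol II lists differ on X as wholes: it held 733 of 6737 control regions (10.9%) and 236 of 7353 knockdown regions (3.21%). The classes were not alike in this. Of X peaks with control Pol II, 9.09% of the enhancer-like, 15.5% of the H3K4me3-marked and 56.4% of the remaining class were covered after knockdown. On the autosomes these shares were 35.6%, 44.2% and 62.5%. Whether the Pol II lists differ by biology or by how each was made was not tested.

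**Figure D3:**
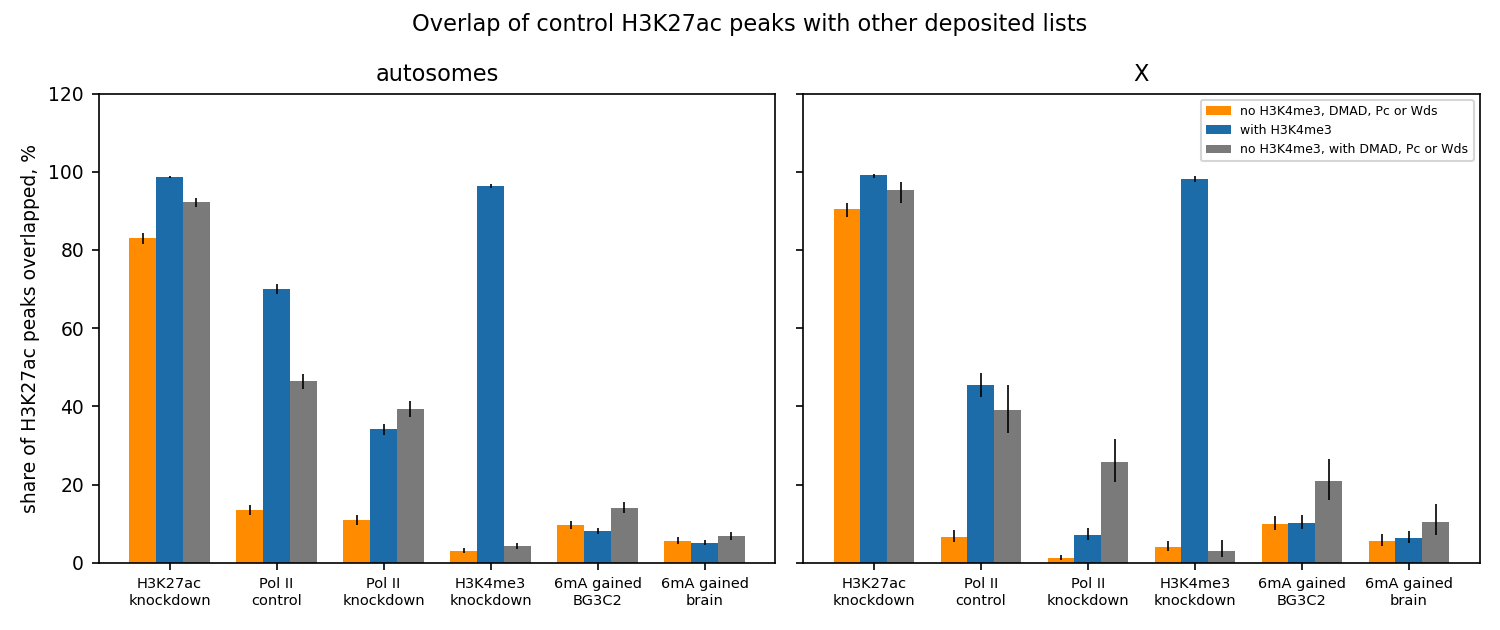
Share of control H3K27ac peaks (vertical axis, %) overlapped by at least 1 bp by each of 6 other lists, for 3 classes, on autosomes (left) and X (right), with 95% Wilson intervals. Enhancer-like peaks have the lowest share under control Pol II on both, 13.5% and 6.67%, and the share under knockdown Pol II is 10.9% and 1.11%.

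Few enhancer-like peaks lay under an H3K4me3 peak listed after knockdown. The knockdown H3K4me3 list overlapped 121 of them (3.31%, 2.78 to 3.94) and 4.08% (3.38 to 4.93) of the remaining class without control H3K4me3. The share was 2.02% among enhancer-like peaks at least 1 kb from every excluding region, and 4.92% in the highest score range. Those with the highest scores, listed after their values were seen, lay in a bundle of 14 genes on X that includes brk (1094.57), in drongo on 2L (1020.83), in CG7024 (952.67) and in LIMK1, the LIM domain kinase gene (929.59). The peak in drongo ended 93 bp from an excluding region and that in CG7024 lay 1480 bp from one. The rule itself left out peaks with control H3K4me3. With 1 library per condition, new H3K4me3 and control signal just under the peak caller's threshold cannot be told apart.

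Windows with 6mA gained after knockdown in BG3C2 overlapped 355 enhancer-like peaks (9.71%, 8.79 to 10.7). The share was 8.49% (7.81 to 9.22) for H3K4me3-marked peaks and 14.7% (13.3 to 16.1) for the remaining class. Measured in bases, which takes width out, gained windows covered 5.53% of enhancer-like peaks, 3.93% of H3K4me3-marked peaks, 7.45% of the remaining class and 4.95% of the arms as a whole. Enhancer-like peaks were thus close to the genome-wide level, between the other classes. The shares on X and the autosomes were 10.0% (8.29 to 12.04) and 9.60% (8.54 to 10.8). In brain, gained regions overlapped 204 enhancer-like peaks (5.58%, 4.88 to 6.37) and covered 2.01% of their bases, against 2.13% of the arms. H3K27ac was mapped in the cell line only, so the brain regions are set against peaks of another cell population.

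Enhancer-like peaks with and without gained 6mA in BG3C2 had close values of the other measures. With and without a gained window, 83.7% and 85.2% were under a knockdown H3K27ac peak, the median scores were 122 and 114, and 14.4% and 11.4% carried control Pol II. Both the BG3C2 and the brain list covered 41 enhancer-like peaks, which is 11.5% of those gained in BG3C2 and 20.1% of those gained in brain. Brain regions covered 4.94% of enhancer-like peaks without a BG3C2 window. The strongest of the 41 (score 1073.51) lay over an end of ACC, the acetyl-CoA carboxylase gene (dm3, chr2R:3873831-3875232), 2 bp from an excluding region. The next were in CG42684 (876.65, dm3, chrX:17628610-17630553), in Acsl, an acyl-CoA synthetase gene (595.59), at gce, a juvenile hormone receptor gene (477.06), in a bundle with CG5151 (402.47) and in CG2865 (377.09). The Acsl peak alone of these 6 also had knockdown H3K4me3. None of the genes named by these 6 peaks was called in either of the authors' deposited tables; in BG3C2 the log2 fold changes of ACC and Acsl were -0.17 and -0.20 (q = 1.00 for each).

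Genes whose locus held an enhancer-like peak were mostly expressed in BG3C2. The authors' deposited table gave these 2910 genes a median of 11.0 FPKM in control cells (95% interval of the median over genes 9.66 to 12.8), against 2.08 over all 15163 genes. Genes with an H3K4me3-marked peak and no enhancer-like peak had a median of 24.8 and genes with no H3K27ac peak of 0.0223 in the authors' deposited table. In a merged locus every gene is counted with the same peaks. For the 913 loci of a single gene the median was 22.1 FPKM (20.0 to 24.9) in the authors' deposited table. These loci were also shorter, with a median of 6684 bp against 16995 bp over the 2910 genes. In such loci the median was 17.4 FPKM with 1 enhancer-like peak (14.1 to 20.7, n = 633 genes) and 27.04 with 2 (19.2 to 37.9, n = 131 genes) in the authors' deposited table. With 3 to 5 it was 39.5 (31.7 to 50.8, n = 117 genes) and with 6 or more 51.0 (20.8 to 108.5, n = 32 genes) in the authors' deposited table. Intervals of neighbouring groups overlapped, and the median locus length went from 4535 to 41576.5 bp. Levels and peak counts here come from the same cells, and no test was made across genes.

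Levels differed with an H3K4me3-marked peak in the same locus. Single-gene loci with both kinds of peak had a median of 35.7 FPKM (32.9 to 39.5, n = 530 genes) in the authors' deposited table. Those with enhancer-like peaks and no H3K4me3-marked peak had 2.89 (2.24 to 4.49, n = 383 genes) in the authors' deposited table. Either group could also hold H3K27ac peaks of the remaining class, with DMAD, Pc or Wds. For comparison, single-gene loci with an H3K4me3-marked peak and no enhancer-like one stood at 31.9 (30.1 to 33.7) in the authors' deposited table. Loci where an enhancer-like peak carried control Pol II had a median of 42.9 FPKM and those without 19.2 in the authors' deposited table. In loci of similar length, genes with enhancer-like peaks had higher levels, by an amount that varied with length. Of single-gene loci from 20000 to 50000 bp, 122 held enhancer-like peaks and 192 did not. Their medians were 23.0 and 0.159 FPKM in the authors' deposited table. From 2000 to 5000 bp the medians were 21.1 (229 loci with) and 8.30 FPKM (2036 without) in the authors' deposited table. Loci without enhancer-like peaks include those with no H3K27ac peak of any class.

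Few of these genes were called after DMAD knockdown. Of 2131 tested genes with an enhancer-like peak, 4 rose and 0 fell at q below 0.05 (0.188%), where 22 of all 8645 tested genes were called, or 0.254% (0.22% higher and 0.0347% lower), in the authors' deposited table. Without adjustment, 40 of them were higher and 30 lower at p below 0.05 (1.88% and 1.41%), where 138 and 62 of all tested genes were (1.60% and 0.717%), in the authors' deposited table. The median log2 fold change was -0.02 in the authors' deposited table, and -0.01 over all tested genes. Genes whose enhancer-like peak carried a gained 6mA window had a median of -0.05 (n = 344 genes, 60.2% below 0) and the others -0.02 (52.3% below 0) in the authors' deposited table, with median locus lengths of 40112 and 13531 bp.

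The 4 genes that rose were 387 to 987 bp long, and the single enhancer-like peak of each lay on the gene itself. Drs, the antifungal peptide drosomycin (dm3, chr3L:3369556-3369942), went from 1222 to 2905 FPKM (log2 fold change 1.25, q = 0.0240) in the authors' deposited table. AttD, an attacin (dm3, chr3R:13450990-13451808), went from 419.6 to 1018 (1.28, q = 0.0240), and GstD2, a glutathione S-transferase (dm3, chr3R:8197693-8198426), from 19.0 to 66.5 (1.81, q = 0.0240), in the authors' deposited table. Hsp67Bc, a small heat shock protein gene (dm3, chr3L:9364611-9365597), was the last, with 37.5 FPKM in control and 98.7 in knockdown cells, a log2 fold change of 1.397 and q = 0.0393 in the authors' deposited table. The peaks were 548 to 1023 bp wide, and each ran over an end of its short gene. Their scores were 129 at Drs, 113 at AttD, 620.29 at GstD2 and 110 at Hsp67Bc, and all 4 were under a knockdown H3K27ac peak. Only the Hsp67Bc peak had control Pol II, and none of the 4 had gained 6mA. The excluding regions nearest to them lay 17696 bp from AttD, 1321 bp from Drs, 510 bp from Hsp67Bc and 152 bp from GstD2.

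In brains labelled knockout, 3 genes with an enhancer-like peak rose and 3 fell among 1819 tested (0.330%), where 63 of all 8266 tested genes were called, or 0.762% (0.387% higher and 0.375% lower), in the authors' deposited table. Drs, the drosomycin gene again, rose from 209 to 597 FPKM (log2 fold change 1.51; adjusted p, q, 0.0103), CG1673 from 4.92 to 16.5 (1.75, q = 0.0248) and CG6040 from 15.4 to 28.4 (0.88, q = 0.0290) in the authors' deposited table. The co-chaperone gene stv fell from 384 to 66.1 FPKM (-2.54, q = 0.0103), noe from 730 to 292 (-1.32, q = 0.0103) and CG30497 from 47.4 to 25.95 (-0.87, q = 0.0290) in the authors' deposited table. In BG3C2 stv had 3.61 FPKM in control and 13.5 in knockdown cells (log2 fold change 1.90, q = 0.0564), which did not pass, in the authors' deposited table. The median log2 fold change was -0.02 in brain, and -0.01 over all tested genes, in the authors' deposited table. Acetylation in brain was not measured, so these genes are placed by peaks of the cell line.

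**Figure D4:**
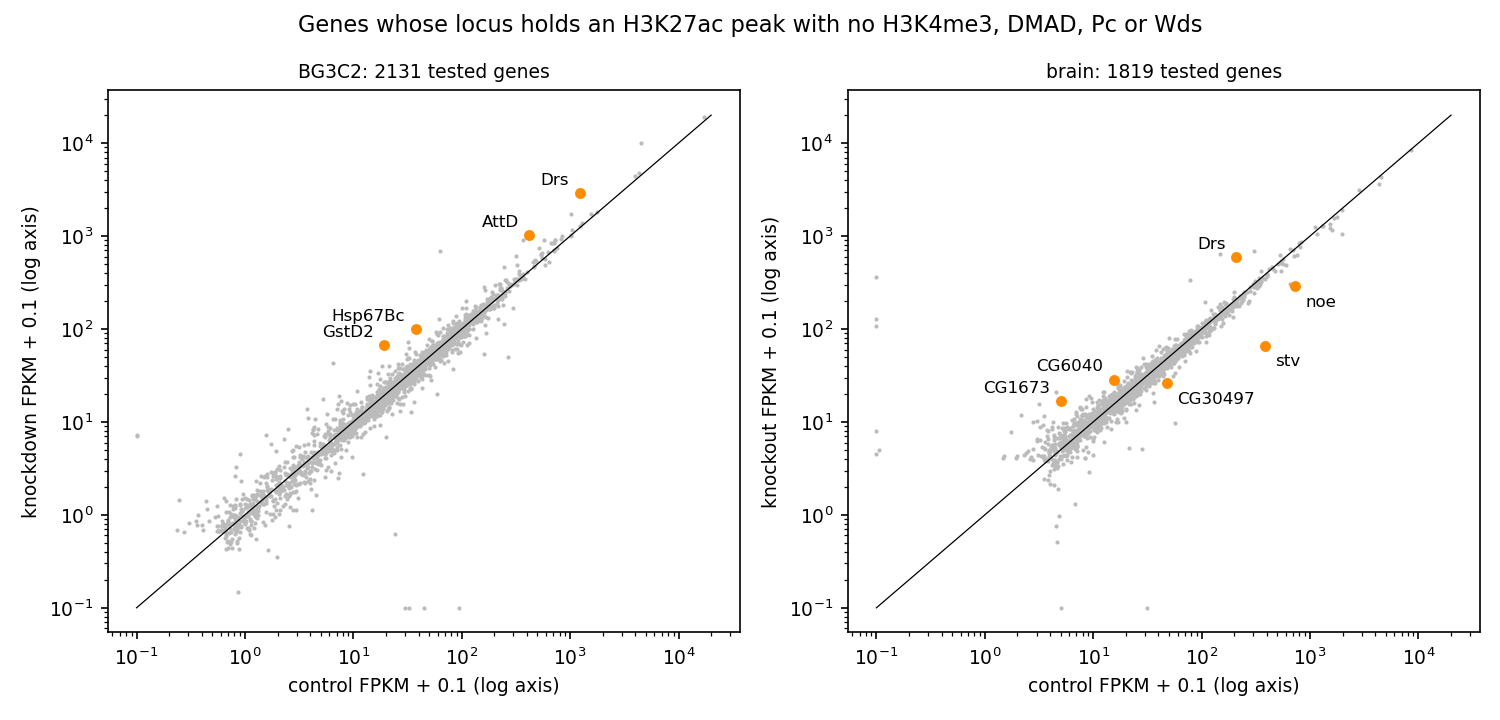
FPKM + 0.1 in control (horizontal) and knockdown or labelled knockout samples (vertical), both on log axes, for tested genes whose locus holds an enhancer-like H3K27ac peak, in BG3C2 (left, 2131 genes) and brain (right, 1819 genes); 1 value per gene and group, from the authors' deposited tables. Called genes are named: 4 lie above the diagonal in BG3C2, and 3 above and 3 below it in brain.

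Enhancer-like peaks were counted in 18 lists of genes, and a peak in a merged locus counted for every gene of that locus. Over all genes with a locus on the arms 19.5% held one, and the lists ranged from 0 of 23 Hox and classical Polycomb targets, a list whose value depends on the exclusion of Pc regions by the rule, to 8 of 12 JNK and AP-1 genes (66.7%). Axon guidance and adhesion had 22 of 37 (59.5%) with a median length of 37798 bp, and receptor tyrosine kinase signalling 17 of 30 (56.7%) with 29439.5 bp. Length did not order the lists, since 52.4% of ecdysone genes (33237 bp), 37.0% of neuroblast and temporal genes (34914 bp) and 25.0% of neuronal and synaptic genes (36655 bp) held a peak, where 43.6% of loci of 20000 to 50000 bp held one. The JNK list had a median length of 9938 bp, and the actin list, with 15 of 27 (55.6%), one of 9910 bp. In loci of 5000 to 20000 bp, for comparison, 28.4% held an enhancer-like peak. These shares by length count each merged locus once, while shares of lists count every gene, so the 2 are unlike measures. Over all, 14.5% of loci and 19.5% of genes held such a peak. A list's median length also does not place all its genes in that range. Muscle markers stood below all genes, with 1 of 14 (7.14%). The intervals of cell cycle and replication genes (7 of 31, 22.6%), neuronal and synaptic genes (5 of 20, 25.0%), Notch pathway genes (7 of 25, 28.0%) and immune genes (9 of 32, 28.1%) contained the share of all genes. Those of muscle markers, glial markers (4 of 12, 33.3%) and JAK/STAT genes (5 of 12, 41.7%) did too.

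**Figure D5:**
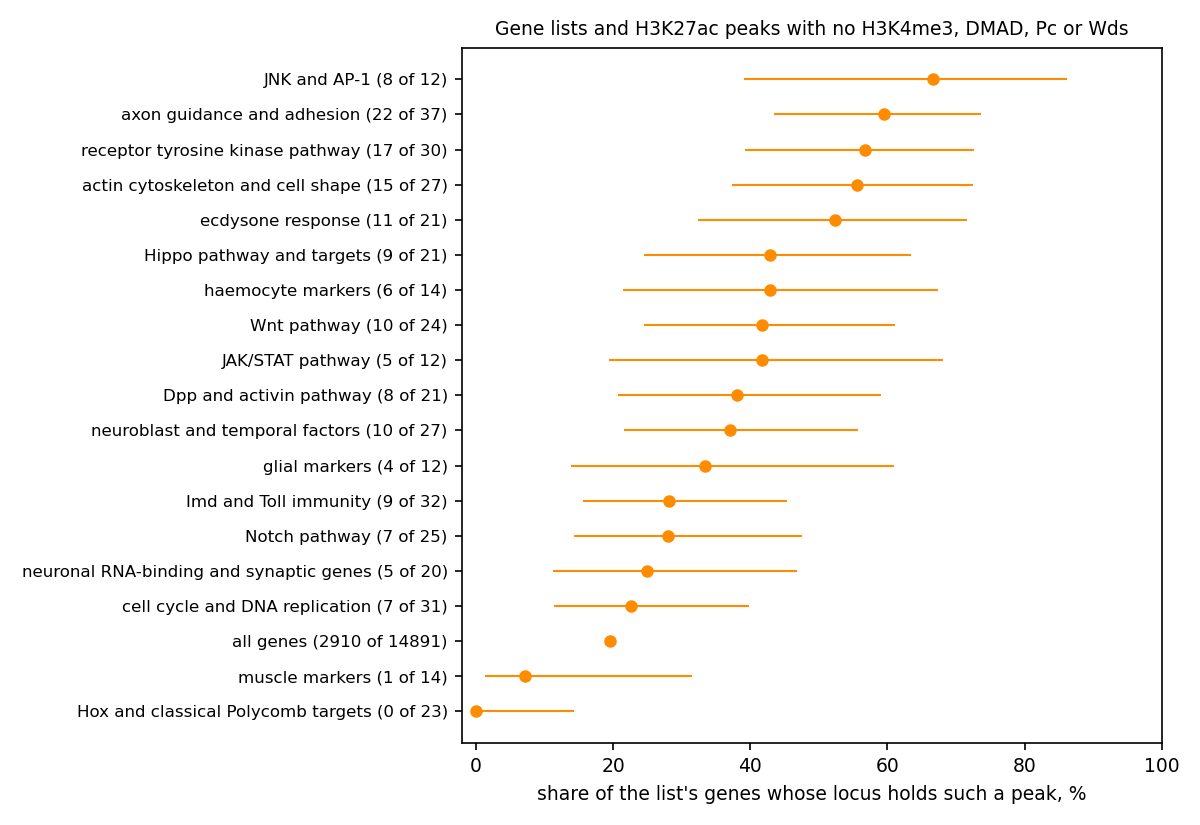
Share of the genes in each of 18 lists, and of all genes, whose locus holds an enhancer-like H3K27ac peak (horizontal axis, %), with 95% Wilson intervals over genes. JNK and AP-1 genes are highest at 66.7%, all genes stand at 19.5% and Hox and classical Polycomb targets are at 0.

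Of the JNK pathway, which relays stress and shape signals to the AP-1 factors, members from receptor to target held enhancer-like peaks. The receptor gene wgn held 4, the kinase genes Tak1 and hep 6 and 5, the target Mmp1, a matrix metalloproteinase, 2 and cbt, a Kruppel-like factor gene, 12 in its shared locus. None of the 8 genes with a peak was called in BG3C2, and their median log2 fold change was 0.03 in the authors' deposited table. For wgn the FPKM was 54.2 in control and 42.0 in knockdown cells, and for hep 29.0 and 29.8, in the authors' deposited table.

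Guidance genes held the most peaks of any list, 81 in 22 genes. These included ligands, sli (14), NetB (6) and NetA (3), and receptors, fra (4), unc-5 (3), lea (3, a Robo receptor) and Dscam (6). Their median log2 fold change in BG3C2 was -0.29 over 21 tested genes, with none called, and -0.14 over the 9 tested guidance genes without an enhancer-like peak, in the authors' deposited table. The sli locus had 98.6 FPKM in control and 66.8 in knockdown cells (log2 fold change -0.56, p = 0.0614, q = 1.00) and unc-5 26.8 and 15.6 (-0.78) in the authors' deposited table. Others were level or higher: Ten-m (13 peaks) had 161 and 162 FPKM (0.01), NetA 107.8 and 109 (0.02) and Fas3 (1 peak) 4.63 and 8.23 (0.83, p = 0.0239) in the authors' deposited table. In brain the median of the 22 genes was -0.05 in the authors' deposited table. That guidance genes have low medians in BG3C2 was known before this list was counted.

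Receptor tyrosine kinase genes held 59 peaks in 17 genes. The nuclear end of the pathway was represented by pnt (11) and aop (5), its activating and repressing ETS factors, and the inhibitors by sty (5) and aos (2). The VEGF-type receptor gene Pvr held 6 and its ligand genes Pvf1 and Pvf2 held 5 and 2. No gene with a peak was called and the median was -0.13 in BG3C2, against -0.14 over the 9 tested genes without one, in the authors' deposited table. Pvr had 124.7 FPKM in control and 125.01 in knockdown cells, and pnt 81.7 and 68.1, in the authors' deposited table.

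Other signalling lists were intermediate. Ecdysone genes held enhancer-like peaks in 11 of 21, with 10 in EcR, the receptor gene, 3 in its partner usp and 5 each in the response genes Eip93F and br. Wnt genes did in 10 of 24, with 10 in sgg, the GSK3 kinase, and 6 each in the receptor genes arr and fz. Hippo genes did in 9 of 21, with 4 in sd, the TEAD factor, and 3 each in the upstream regulators kibra and ex. The merged locus of ex holds 3 genes, crq among them. Dpp genes did in 8 of 21. Of these, the 5-gene locus of the receptor gene tkv held 11, and the glypican genes dally and dlp 7 and 4. JAK/STAT genes did in 5 of 12, with 3 in the receptor-like et, 2 in the ligand upd3 and 1 in Socs16D, a signalling suppressor. Of the Notch pathway, the coactivator mam held 10 in its locus, the protease kuz 7, the ubiquitin ligase neur 4 and the ligand Dl 2. No member of these lists with an enhancer-like peak was called in BG3C2 or brain in the authors' deposited tables. The lowest of these medians in BG3C2 was that of Wnt genes, -0.39 (n = 10 genes), with -0.14 in the 10 tested Wnt genes without a peak, in the authors' deposited table. Notch genes were placed the other way, at -0.18 with a peak (n = 7 genes) and -0.59 over the 14 tested without one, in the authors' deposited table.

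Structural and lineage lists differed widely. Actin genes with a peak included zip (6), sn, the fascin gene (5), Fhos, a formin gene (5), and chic, profilin (2, at 1545 FPKM in control cells in the authors' deposited table). Of haemocyte markers 6 of 14 held one, with 3 each in srp and crq and 12 in the locus that ush shares with cbt. The 3 peaks of crq are those counted for the Hippo gene ex, in the same merged locus. Among neuroblast and temporal genes 10 of 27 did, led by Syp (5), brat (4) and Imp (3), RNA-regulatory genes; the 3 peaks counted for ac, sc, l(1)sc and ase are the same peaks in a bundle of 17 genes. Mef2 was the sole muscle marker, with 6. Glial markers held peaks in 4 of 12, with 2 each in Gli and nrv2 and 1 each in gem and loco. Cell cycle genes with peaks were led by Orc2, of the origin recognition complex (6), and the factor gene E2f (4). These peaks lay in merged loci of 4 and 3 genes. The rest, among them the kinase gene Cdk4, held 1 each. Over the 5 neuronal genes with a peak, which include futsch (2), Syx1A (1) and comt (1), the median level was 7.75 FPKM against 0.0350 over the list's other genes in the authors' deposited table. For haemocyte markers the corresponding medians were 107.6 and 2.33 FPKM in the authors' deposited table.

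Among genes with an enhancer-like peak, the immune list had the highest median change of these lists, and immune genes without one were also high. The 9 such genes, 2 of them called, had a median log2 fold change of 1.16 in BG3C2, and the 23 tested immune genes without one 0.79, in the authors' deposited table. Apart from Drs and AttD, the recognition genes PGRP-LB (3 peaks in its bundle) and PGRP-SA (2) had 1.63 and 31.8 FPKM in control and 5.69 and 72.3 in knockdown cells (q = 1.00 for each), and the adaptor Myd88 (2) 14.5 and 16.8 (q = 1.00), in the authors' deposited table. In brain 1 of 8 tested was called, Drs, and the median was 0.59 in the authors' deposited table.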

How the data were processed

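The build was dm3, and the tools named were MACS 1.4.2, Cuffdiff 2.2.1, TopHat2 2.0.8 and Bowtie 0.12.9, per the submitters' processing notes. Not given in the sources used here are the reads behind the H3K27ac and Pol II lists, the Pc and Wds libraries that were merged and the calling of 6mA gain. The deposited RNA tables hold 1 FPKM per gene and group, the log2 fold change, the p-value and the q-value, all by the authors (Cuffdiff, per the file headers); the tables of the tissues were normalised separately. Recomputed log2 ratios differed from the deposited ones by at most 1.48e-05. The deposited score of H3K27ac peaks is the authors' MACS score, from 50.01 upwards on the main arms. A weak peak can fall off a list by a small change of depth, which is unknown here. Whether replicates were separate cultures or flies is not in the labels; the authors' p-values then measure the spread between libraries, which may be technical.

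From the files, peaks on arms 2L, 2R, 3L, 3R, 4 and X were classed by overlaps of at least 1 bp, and shares were given 95% Wilson intervals. A further 25 peaks off these arms, 2 of which met the rule, were left out. A gene held a peak when its locus overlapped it; all genes of a merged locus held the same peaks, and the gene named for a bundle is that with the highest control FPKM. Calls are the authors' (status OK, q below 0.05). Medians over genes carry order-statistic intervals. No test over samples was possible. Overlap, distance and interval functions were tested on simulated data (Python 3.11.15, numpy 2.4.6, pandas 2.3.3, SciPy 1.17.1). Coordinates count from 1. Of 416 list entries 382 matched by symbol, 26 by a RefSeq synonym (dm6 names only) and 8 not at all.

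The peaks, gene lists and questions were chosen with earlier results of these data known. Named were the 10 highest scores, the 10 loci with most peaks, called genes, up to 3 genes per list by peak count, and the 6 highest scores each among peaks with 6mA gained in both tissues and peaks off the knockdown list. Other list genes, single-gene loci, runs and the peaks with knockdown H3K4me3 were chosen after their values were seen. Not every gene of the receptor tyrosine kinase list that this rule names is reported here.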

Additional observations from a re-analysis of the deposited data

How the results depend on the processing

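Of 46 alternatives over 10 results, 30 stayed inside the interval of the reported value (counts: within 1.5 times) and 16 did not. No direction reversed. Requiring at least 50% of the peak to be covered gave 6.15% for 6mA gained in BG3C2, 1.86% for brain and 2.57% for knockdown H3K4me3. Enhancer-like peaks in the upper 50% of the score gave 98.7% for knockdown H3K27ac, 4.05% for knockdown H3K4me3, 2 called genes in BG3C2, 2 in brain and a median control level of 13.6 FPKM in the authors' deposited table. At least 1 kb from every excluding region the shares were 83.2% for knockdown H3K27ac, 2.02% for knockdown H3K4me3 and 10.4% for control Pol II, which was also 10.4% for widths of 500 to 1500 bp. The median control level was 22.1 FPKM in loci of 1 gene and 24.5 among genes of at least 1 FPKM in the authors' deposited table. At q below 0.01 there were 0 called genes in BG3C2 and 0 in brain, because the lowest q in the authors' deposited tables is 0.0240 and 0.0103. No paired analysis was possible because the files hold 1 value or 1 list per group; leaving out replicates could not be done for the same reason. Unknown depth limits what absence from a list means.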

Other observations

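The knockdown H3K27ac list was put through the same rule, with the knockdown H3K4me3 list in place of the control one. Of 11990 knockdown H3K27ac peaks on the main arms, 3402 overlapped no knockdown H3K4me3 peak and no DMAD, Pc or Wds region. The control H3K27ac and H3K4me3 lists gave 3657. Of the 3402, 2843 (83.6%) lay on enhancer-like peaks of the control list. A further 507 (14.9%, 95% Wilson interval 13.7 to 16.1) lay on no control H3K27ac peak. The latter were weak within the knockdown list, with a median score of 63.44 and a highest score of 296.99, where the median of all 3402 was 121. Of these 507, 25.8% lay on X and 4.73% overlapped a 6mA window gained in BG3C2. Enhancer-like peaks that were off the knockdown list (548) and peaks of this kind listed after knockdown alone (507) were thus similar in number. Each set was of low score within its own list, and scores were not compared between the lists.

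In 30 cases an enhancer-like peak covered a whole single-gene locus. Of the 1568 loci with enhancer-like peaks, 542 (34.6%) held no H3K4me3-marked H3K27ac peak.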
